A study of Mus musculus with 8 samples.

Results

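Long intergenic noncoding RNA genes (lincRNA genes) yield long, usually polyadenylated transcripts with no annotated protein product. The 837 genes described here were those of the exonic count table that GENCODE vM21 types as lincRNA, that lie on an autosome and that had at least 10 counts in at least 4 of the 8 libraries. They were drawn from 55471 genes, of which 5617 were lincRNA genes and 4982 of these autosomal. Of 842 genes that met the rule, 5 widely studied nuclear RNAs (Meg3, Mirg, Malat1, Neat1 and Miat) were left out by name. At the edge of the rule, Gm35608 was just inside with 12, 12, 6 and 10 counts in Mock samples 1 to 4 and 2, 2, 10 and 6 in Pilo samples 1 to 4. Gm45650 was just outside, with 17, 3, 14 and 9 counts in Mock and 27, 7, 5 and 5 in Pilo.

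The study asked how the transcriptome of excitatory neuronal nuclei differs during seizures evoked by pilocarpine, an agonist of muscarinic acetylcholine receptors. All 8 samples were forebrain nuclei of male C57BL/6J mice aged 6 to 8 weeks with the genotype CaMKIIalpha-Cre:SUN1-sfGFP, in which a fluorescent nuclear envelope protein marks cells where the CaMKIIalpha promoter drives Cre, and the tagged nuclei were purified with an antibody to GFP. Every mouse was given scopolamine methyl nitrate at 1 mg/kg, a muscarinic antagonist. The 4 Mock samples then had saline 30 min later, while the 4 Pilo samples had pilocarpine at 340 mg/kg and were left to seize for 100 min. Only pilocarpine-treated mice that scored 3 to 5 on the Racine seizure scale were kept, so the drug, the seizures and this selection cannot be told apart. Whether the samples of a group came from separate mice is not in the labels, and the p-values therefore reflect only the sample-to-sample spread, some of which may be technical.

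LincRNAs are made by RNA polymerase II, and most are capped, spliced and polyadenylated like messenger RNA. Many stay in the nucleus, are made at low levels and are removed quickly by the nuclear exosome, an RNA-degrading complex. Some start back to back with a protein-coding gene from a shared stretch of promoter, some lie downstream of a gene on the same strand, and a few are hosts from which microRNAs are cut.

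Promoters of 4 genes with large changes are shown, since later paragraphs turn on these genes and on what lies beside them. The choice was limited to genes with a promoter entry. Gm44214, Gm43848 and B230317F23Rik changed more than some of those shown but had none. Dbpht2, Gm46404 and Gm41442 had an entry, with no match to the motifs counted below, and are not shown. Each is 300 bases of RefSeq sequence on GRCm38.p6, from 250 bases before to 50 after the RefSeq start, read 5′ to 3′ on the strand of the gene. Gm17501 (chr3:145649827-145650126, plus strand) and Mir9-3hg (chr7:79499776-79500075, plus strand) were higher in Pilo. Gm20939 (chr17:94864651-94864950, plus strand) and 1700040D17Rik (chr3:94412906-94413205, minus strand) were lower. The Gm17501 window also spans the start of Ccn1, which is transcribed the other way. Capitals mark the one match to a cyclic AMP response element (CRE), TGACGTCA.
Gm17501 promoter: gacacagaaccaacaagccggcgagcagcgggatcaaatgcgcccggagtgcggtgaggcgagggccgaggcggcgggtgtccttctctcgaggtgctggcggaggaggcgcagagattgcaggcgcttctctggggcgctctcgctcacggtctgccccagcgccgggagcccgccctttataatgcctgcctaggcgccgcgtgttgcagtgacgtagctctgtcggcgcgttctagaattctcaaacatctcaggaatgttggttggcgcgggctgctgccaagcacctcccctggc
Mir9-3hg promoter: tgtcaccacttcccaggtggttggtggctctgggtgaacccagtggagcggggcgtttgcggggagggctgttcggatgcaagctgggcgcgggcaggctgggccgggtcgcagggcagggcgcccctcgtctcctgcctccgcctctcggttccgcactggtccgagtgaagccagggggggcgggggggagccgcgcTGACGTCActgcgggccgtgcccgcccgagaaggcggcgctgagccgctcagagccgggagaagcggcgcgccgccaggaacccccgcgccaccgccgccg
Gm20939 promoter: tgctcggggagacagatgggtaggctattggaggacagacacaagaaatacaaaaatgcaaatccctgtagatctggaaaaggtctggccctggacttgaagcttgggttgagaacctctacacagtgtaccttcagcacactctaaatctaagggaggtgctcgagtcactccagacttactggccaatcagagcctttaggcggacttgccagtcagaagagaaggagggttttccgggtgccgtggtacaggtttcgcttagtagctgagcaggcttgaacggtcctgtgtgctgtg
1700040D17Rik promoter: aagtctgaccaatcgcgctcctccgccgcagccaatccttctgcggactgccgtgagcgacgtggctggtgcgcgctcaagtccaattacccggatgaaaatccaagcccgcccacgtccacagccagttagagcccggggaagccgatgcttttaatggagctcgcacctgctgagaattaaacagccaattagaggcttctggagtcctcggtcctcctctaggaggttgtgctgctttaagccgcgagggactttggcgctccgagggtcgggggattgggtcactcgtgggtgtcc

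The mature microRNAs cut from 2 host transcripts that were higher in Pilo are shown with the seed, bases 2 to 8, in capitals. They are RefSeq sequences on GRCm38.p6. Mir9-3hg holds miR-9, a neural microRNA, and Mir670hg holds miR-129 and miR-670. The 6 seeds all differ.
mmu-miR-9-5p: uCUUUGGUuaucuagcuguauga
mmu-miR-9-3p: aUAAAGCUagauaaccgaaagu
mmu-miR-129-5p: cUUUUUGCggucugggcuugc
mmu-miR-129-2-3p: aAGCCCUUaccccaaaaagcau
mmu-miR-670-5p: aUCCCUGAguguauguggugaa
mmu-miR-670-3p: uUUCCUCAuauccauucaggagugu

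Exonic counts per library summed to between 29356788 and 36161448. Levels below are CPM, a gene's counts scaled to a common library size after TMM normalisation. Summed markers of excitatory neurons lay between 2662 and 3294 CPM in Mock and between 3052 and 3581 in Pilo, and 5 of 9 were higher in Pilo. Inhibitory neuron markers summed to 265 to 313 CPM in Mock and 339.9 to 427 in Pilo, with 4 of 9 tested higher and Dlx6os1 at 0. Astrocyte markers summed to 784 to 1159 CPM in Mock and 927 to 1411 in Pilo, with 0 of 7 called. Oligodendrocyte markers summed to 312 to 423 CPM in Mock and 399 to 712 in Pilo, with 1 of 7 higher, and markers of their precursors to 23.5 to 43.9 and 27.1 to 63.0 CPM, with 1 of 4 higher. Microglial markers summed to 14.4 to 21.6 and 16.2 to 25.8 CPM, and endothelial and pericyte markers to 14.9 to 30.8 and 18.1 to 74.8 CPM, with 0 of 7 and 0 of 6 called. Intronic reads made up 33.0 ± 0.799% of the exonic and intronic reads of the second deposited table in Mock (SD, n = 4) and 30.0 ± 0.627% in Pilo. The part of these differences in the results below was not tested.

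The lincRNA genes were rare transcripts. Their median level over the 8 libraries was 1.17 CPM, against 24.2 for the 14361 protein-coding genes that met the same count rule. Per kilobase of merged exons, the medians were 0.887 and 5.49 CPM. Their exons summed to a median of 1818 bases, against 4463 for protein-coding genes, and 126 of them (15.1%) had a single exon. The nearest protein-coding gene lay at a median of 8490 bases, 112 lincRNA genes overlapped one, and 490 overlapped no other gene. Provisional clone, Gm or Rik names were carried by 788 of them.

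More lincRNA genes fell than rose in Pilo. Of the 813 that could be tested, 44 (5.41%) were higher and 153 (18.8%) were lower by edgeR's quasi-likelihood test at a Benjamini-Hochberg adjusted p of 0.05 over all genes, which is a called gene throughout. The background over all 19176 genes tested was 31.8% called, 15.6% higher and 16.2% lower. The median log2 fold change of the tested lincRNA genes, Pilo over Mock, was -0.18 (quartiles -0.53 and 0.15), and 65.3% were negative, beside a median of 0.005 over all genes. At a change of at least 2-fold, 19 of the 813 lincRNA genes were higher and 62 lower, beside 407 and 541 of all 19176 genes. Protein-coding genes under the same rule split the other way, 2596 (18.2%) higher and 2241 (15.7%) lower, with a median of 0.03. At 2-fold, 249 of these 14277 tested genes were higher and 176 lower. The difference between the classes is a description and was not tested.

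The share of a library's exonic counts that fell in the lincRNA genes was 0.825%, 0.852%, 0.853% and 0.826% in Mock samples 1 to 4. It was 0.709%, 0.714%, 0.739% and 0.698% in Pilo samples 1 to 4. Every Mock sample was above every Pilo sample, and this held without the most abundant gene, Mir124a-1hg (means of 0.714% and 0.629%). The groups of single genes did not overlap for 165 of the tested lincRNA genes on the lower side and 47 on the higher side, where 16.2% and 15.7% of all genes did so.

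Other noncoding classes under the same count rule also had more falls than rises. Antisense genes had 62 higher and 145 lower of 970 tested, with a median log2 fold change of -0.06. Genes typed TEC, an annotation class that awaits experimental evidence, had 95 higher and 191 lower of 1047, with a median of -0.16. With samples of the same number treated as pairs, 66 lincRNA genes were higher and 217 lower, and these held all 44 and all 153 called without pairs. The background then was 47.0% called, 23.8% higher and 23.2% lower, and it applies to all paired counts below. Leaving out Pilo replicate 2 left 29 higher, with 139 lower and a median of -0.23.

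The count rule itself fixed part of this for 13 genes. Of 9 genes that reached 10 counts in the 4 Mock libraries and in no Pilo library, 7 could be tested and 7 were lower. Of 4 that did so in Pilo alone, 3 were tested and 3 were higher. Among the 603 with at least 10 counts in all 8 libraries, 36 were higher and 129 lower. In all, 24 of the 837 were below the filter of the fit and were not tested.

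**Figure D1:**
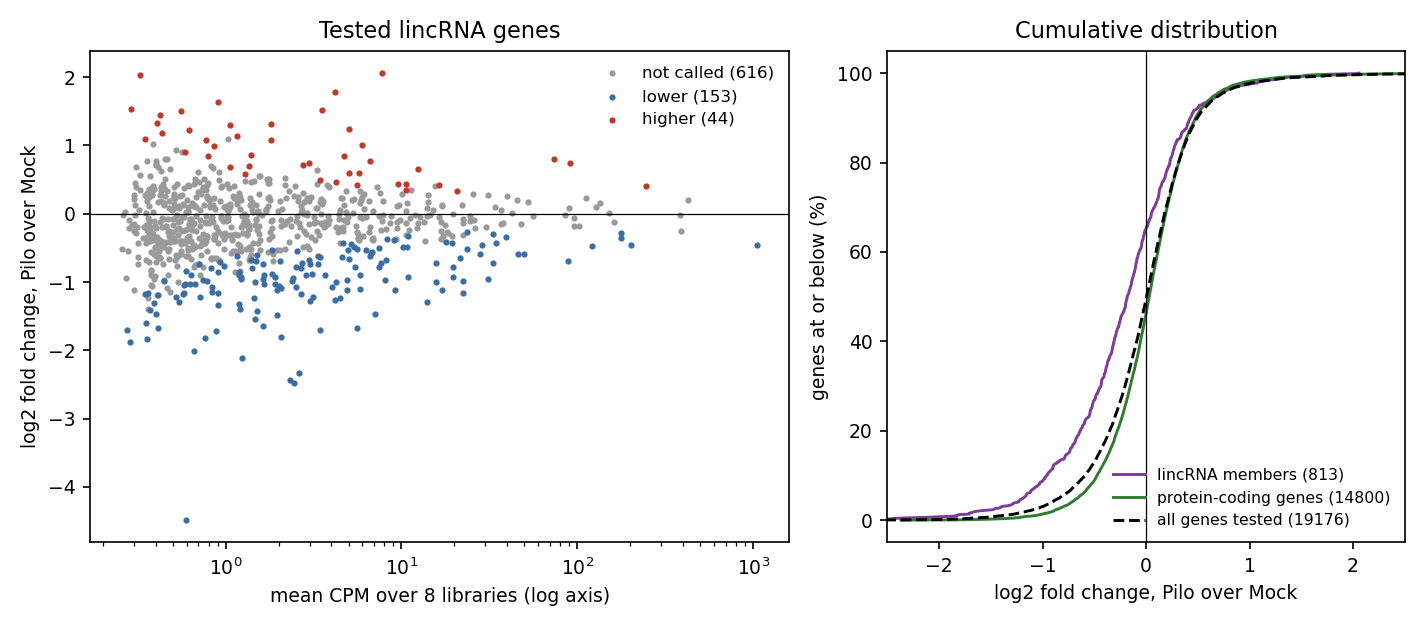
Left, log2 fold change (Pilo over Mock) against mean CPM (log axis) for the 813 lincRNA genes tested, one point a gene, blue for 153 lower and red for 44 higher. Right, the share of genes at or below each log2 fold change for lincRNA genes, for all protein-coding genes tested and for all 19176 genes tested; the lincRNA curve crosses 0 at 65.3%.

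The largest rise among the named genes was that of Gm17501 (chr3:145650312-145677580, plus strand, 2 exons), which starts 331 bases from Ccn1 on the other strand. Ccn1 encodes a secreted matricellular protein and is an immediate early gene. Gm17501 was at 1.99, 3.36, 3.73 and 2.82 CPM in Mock samples 1 to 4 and at 13.7, 13.7, 10.7 and 11.7 CPM in Pilo. Its log2 fold change was 2.06 ± 0.18 (SE; edgeR adjusted p = 5.33e-06). Every Pilo sample was above every Mock sample, as the rule for naming the largest rises and falls required. Ccn1 rose from 3.34 ± 1.91 to 75.9 ± 15.8 CPM (SD, n = 4), a log2 fold change of 4.51 (edgeR adjusted p = 0.000111). The strand setting of the counting is not given in the sources used here, so reads of such close neighbours may be shared.

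Gm44214 (chr6:86687823-86688428, minus strand, 1 exon) was at 1.82, 2.34, 1.46 and 1.91 CPM in Mock and at 7.48, 8.06, 4.65 and 5.60 CPM in Pilo. It rose by 1.78 ± 0.21 on the log2 scale (SE; edgeR adjusted p = 4.30e-05). It lies 3301 bases upstream of Snrnp27, a gene for a splicing protein, whose log2 fold change of -0.20 was not called. Gm43848 (chr3:105725901-105727147, minus strand, 1 exon) begins 120 bases past the end of Rap1a on the same strand. It was at 2.55, 1.51, 1.41 and 1.84 CPM in Mock and at 5.51, 4.41, 5.71 and 5.37 CPM in Pilo, a log2 fold change of 1.53 ± 0.20 (SE; edgeR adjusted p = 8.97e-05). Rap1a, which encodes a small GTPase, was higher by 0.48. In both lincRNA genes the groups did not overlap, as the rule for the largest rises required.

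The remaining large rises were smaller. Gm29156 (1.31), 1700056N10Rik (1.25), Gm29367 (1.09), Gm14168 (1.01), Gm35501 (0.84), Gm15721 (0.78) and Gm28592 (0.75) had mean levels of 1.81 to 6.66 CPM over the 8 libraries, the values in brackets being log2 fold changes. Dbpht2 and Mir9-3hg were the abundant ones. Dbpht2 (chr12:74296668-74302008, plus strand, 1 exon) was at 49.5, 54.3, 56.2 and 53.2 CPM in Mock and at 100.0, 97.5, 92.0 and 83.7 CPM in Pilo, and rose by 0.81 ± 0.08 (SE; edgeR adjusted p = 1.01e-05). Gm28592 overlaps Phlda1 on the other strand, so their reads may be shared, and Phlda1 rose by 0.57. Of the 12 largest rises, 5 genes had 1 exon, 7 lay within 1 kb of a protein-coding gene, and 4 lay downstream of one on the same strand within 10 kb. Among all 837 lincRNA genes these numbers were 126, 254 and 76, and the difference was not tested.

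The largest fall by this rule was that of Gm20939 (chr17:94864918-94878321, plus strand, 4 exons), 114899 bases from Mettl4. It was at 3.85, 4.26, 4.82 and 3.69 CPM in Mock and at 1.09, 0.326, 1.08 and 0.464 CPM in Pilo. The log2 fold change was -2.47 ± 0.31 (SE; edgeR adjusted p = 7.64e-05). B230317F23Rik (chr8:60983437-60985908, plus strand, 1 exon) starts 137 bases from Clcn3, a chloride transporter gene, in the opposite direction. It was at 4.51, 3.68, 3.38 and 4.12 CPM in Mock and at 0.914, 0.555, 0.510 and 0.895 CPM in Pilo, a log2 fold change of -2.44 ± 0.23 (SE; edgeR adjusted p = 8.16e-06). Clcn3 itself was higher by 0.30 (edgeR adjusted p = 0.0201). In both lincRNA genes every Pilo sample was below every Mock sample, as the rule for the largest falls required.

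1700040D17Rik (chr3:94409395-94412919, minus strand, 2 exons) starts 354 bases from Tdrkh, which encodes a Tudor domain protein of the piRNA pathway. It was at 4.61, 4.36, 4.37 and 4.12 CPM in Mock and at 1.26, 0.620, 0.606 and 0.961 CPM in Pilo. It fell by 2.33 ± 0.23 on the log2 scale (SE; edgeR adjusted p = 1.15e-05), and Tdrkh fell by 0.56. The other large falls were AC122487.1 (-1.81), Gm46404 (-1.71), Gm44037 (-1.68), Gm41442 (-1.64), 1700110C19Rik (-1.48), AC026385.1 (-1.47), Gm15631 (-1.29), Gm46123 (-1.28) and Gm44698 (-1.26). Gm15631, the most abundant of the 12, starts 79 bases from Cntn4, a neural adhesion gene, and went from 19.8 ± 1.55 to 8.08 ± 1.65 CPM (SD, n = 4), while Cntn4 was not called at 0.08. None of the 12 lay downstream of a protein-coding gene on the same strand within 10 kb, 5 were divergent within that distance and 3 had 1 exon. Among all 837 lincRNA genes these numbers were 76, 163 and 126, and the difference was not tested.

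One gene below the mean count of 50 set for naming moved further than all of these and was picked after its values were seen. I830134H01Rik (chr19:38051774-38054528, minus strand, 1 exon) had 41, 37, 43 and 26 counts in Mock samples 1 to 4 and 1, 1, 2 and 2 counts in Pilo. The pooled CPM in Mock was 25.5 times that in Pilo, with an exact 95% interval of 11.4 to 70.6 for counting error only. The fitted log2 fold change was -4.48 ± 0.39 (SE; edgeR adjusted p = 5.44e-06). It passed the count rule through Mock alone. It starts 483 bases from Cep55, a cytokinesis gene, whose log2 fold change of -0.90 was not called (edgeR adjusted p = 0.0682).

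**Figure D2:**
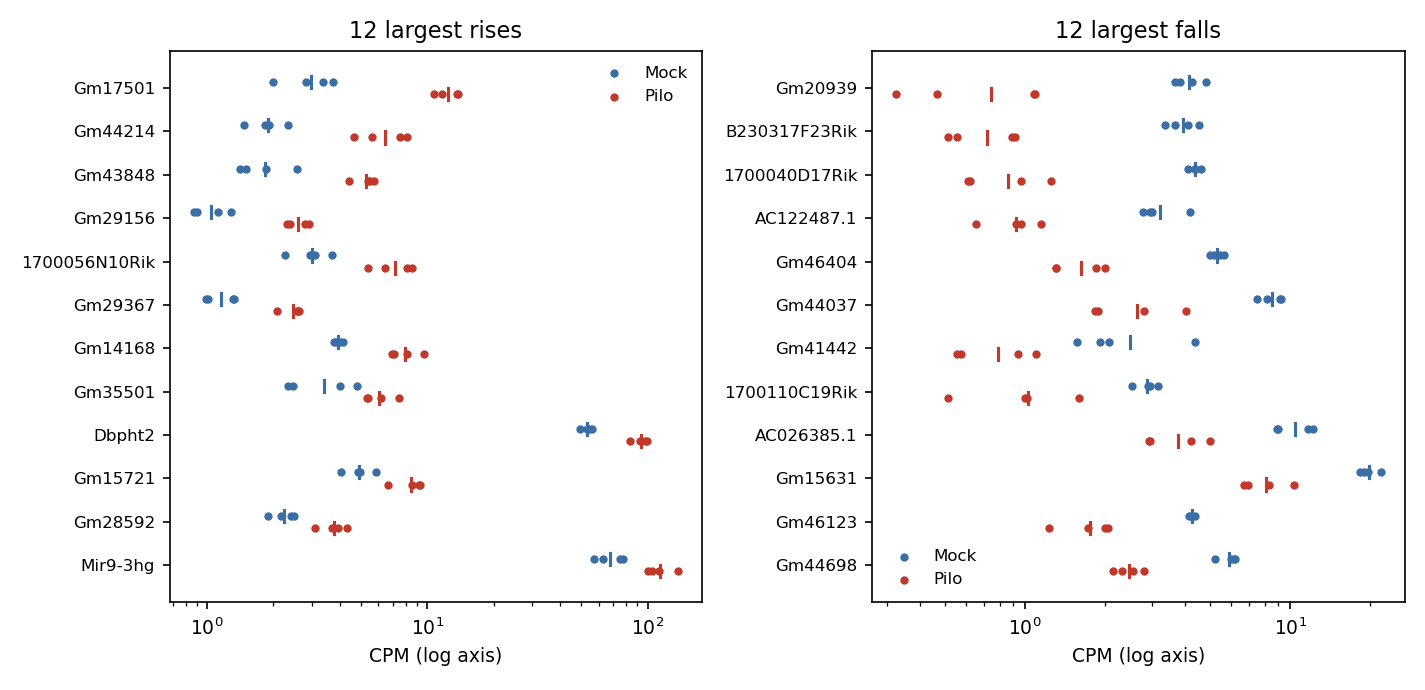
CPM (log axis) in each of the 4 Mock (blue) and 4 Pilo (red) samples for the 12 largest rises and the 12 largest falls, with vertical bars at the group means. The 2 groups do not overlap in any of the 24 genes, a condition of the rule that picked them; Gm17501 goes from a mean of 2.97 to 12.5 CPM and Gm20939 from 4.15 to 0.740 CPM.

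The counts of a few abundant genes dominated the class. Mir124a-1hg held 13.5% of the summed CPM of the lincRNA genes, and the 10 most abundant genes held 43.3%. Mir124a-1hg is the host of miR-124, a microRNA that promotes neuronal identity. It was at 1097, 1334, 1218 and 1213 CPM in Mock and at 926, 924, 867 and 825 CPM in Pilo. The log2 fold change was -0.46 ± 0.08 (SE; edgeR adjusted p = 0.00118). No Pilo sample reached the lowest Mock sample.

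Of the other 9, 4 were called. 2900097C17Rik, the mouse Norad gene, whose RNA binds Pumilio proteins, was at 224, 193, 225 and 200.5 CPM in Mock and at 303, 247, 318 and 253 CPM in Pilo, and rose by 0.41 ± 0.10 on the log2 scale (SE; edgeR adjusted p = 0.00559). C78859 fell by 0.46, from 251, 240.1, 221 and 221 CPM to 192, 176, 154 and 156 CPM. AI480526 fell by 0.36 and Mir124-2hg, another miR-124 host, by 0.29. AI480526 lost its call without any 1 of Mock 1, 2 or 4 or Pilo 1 or 3 (largest adjusted p = 0.0855), and Mir124-2hg without any 1 of Mock 1 or 2 or Pilo 2, 3 or 4 (largest adjusted p = 0.1101). Gm3764, Gm42418, Gm10419, D930016D06Rik and A230057D06Rik were not called, at log2 fold changes of 0.20, -0.26, -0.01, -0.12 and 0.02. Gm42418 lies in a region of ribosomal RNA sequence, and it and Gm3764 were called in the paired fit (edgeR adjusted p = 0.000493 and 0.00325).

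Per kilobase of exon, Bc1 was the highest at 805 CPM. Bc1 is a short, dendritic RNA of neurons made by RNA polymerase III. It was at 127, 142, 167 and 74.4 CPM in Mock and at 146, 114, 228 and 82.1 CPM in Pilo. The groups overlapped widely, and the log2 fold change of 0.16 ± 0.37 was not called (SE; edgeR adjusted p = 0.794).

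MicroRNA hosts moved in both directions. All 5 of them were tested, with 2 higher, 2 lower and 1 not called, beside the 31.8% of all genes called. Mir9-3hg (chr7:79500026-79534403, plus strand, 5 exons), whose promoter and microRNAs are shown above, was at 57.1, 77.1, 62.7 and 74.7 CPM in Mock and at 101, 138, 104 and 112 CPM in Pilo. Its log2 fold change was 0.75 ± 0.12 (SE; edgeR adjusted p = 0.000408). The groups did not overlap, a condition for its place among the largest rises. Mir670hg rose by 0.66 ± 0.13 (SE; edgeR adjusted p = 0.00209), from 11.2, 9.84, 7.38 and 9.96 CPM to 16.2, 15.8, 12.6 and 15.9 CPM. The 2 miR-124 hosts were lower, as given above, and Mir17hg, host of an oncogenic microRNA cluster, was at -0.23 and not called. Host transcripts are counted here, not the mature microRNAs.

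**Figure D3:**
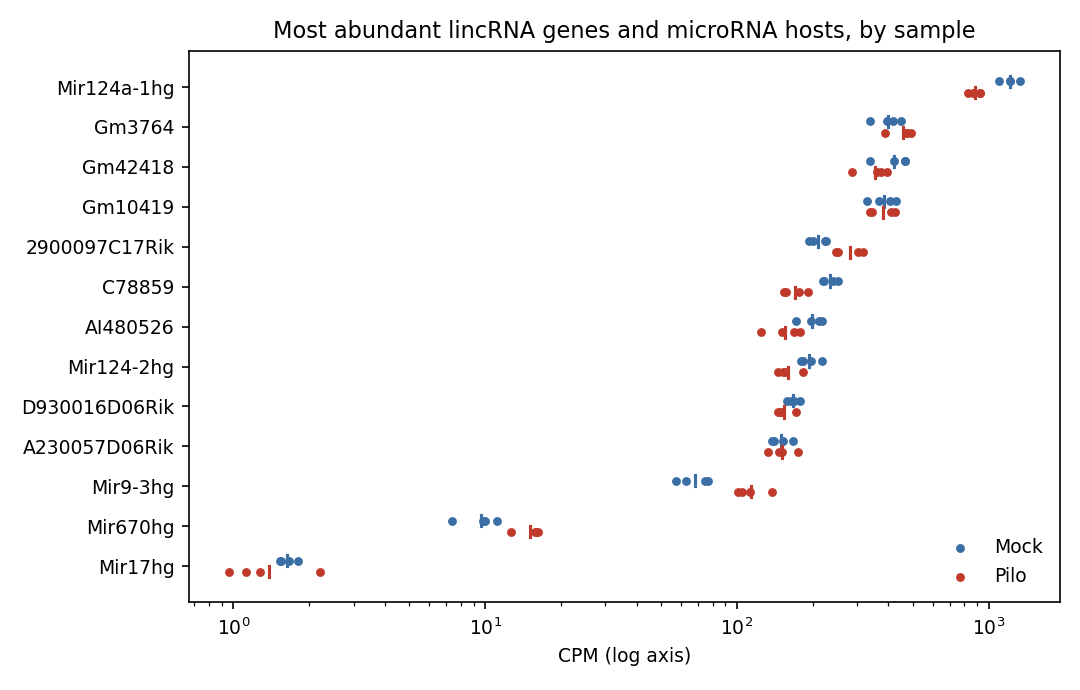
CPM (log axis) in each Mock (blue) and Pilo (red) sample for the 10 most abundant lincRNA genes and the 5 microRNA hosts, 2 of which are in both sets, with bars at the group means. Mir124a-1hg has means of 1216 and 885 CPM with no overlap, while Mir9-3hg, Mir670hg and 2900097C17Rik lie higher in every Pilo sample than in any Mock sample.

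Of a list of 50 lincRNAs treated as characterised, some of which carry only provisional names, 14 were measured among these genes. Of the 14, 1 was higher (2900097C17Rik) and 3 were lower, beside the 31.8% of all genes called, with a median of -0.09. In the paired fit 1 was higher and 5 were lower, beside 47.0% of all genes called. Gm12371 fell by 0.97, from 6.46 ± 0.780 to 3.29 ± 0.523 CPM (SD, n = 4). A330008L17Rik, which starts 171 bases from the cadherin gene Cdh8, fell by 0.92, from 15.7, 13.3, 15.4 and 12.3 CPM to 7.88, 6.72, 9.05 and 6.30 CPM. C130071C03Rik fell by 0.47, from 148, 139, 146 and 129 CPM to 107, 107, 95.1 and 97.0 CPM. In all 3 genes every Pilo sample was below every Mock sample. The uncalled genes of the list had log2 fold changes of -0.37 (Epb41l4aos) to 0.17 (Rmst). Epb41l4aos and A230006K03Rik (-0.25) were called lower in the paired fit (edgeR adjusted p = 0.0399 and 0.0319). Pantr1 (-0.05), Pvt1 (-0.04), Lncpint (0.07) and Rmst, which are known from neural development, Myc regulation, p53 signalling and neurogenesis, had small log2 fold changes. The 5 hosts of small nucleolar RNAs, which guide ribosomal RNA modification, had log2 fold changes of -0.36 to 0.34 and 0 calls by edgeR; Snhg10 and Snhg20 were called lower in the paired fit (adjusted p = 0.00845 and 0.0157).

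Few lincRNA genes lay close to activity-induced genes. Within 10 kb of a list of 65 such protein-coding genes there were 3. Gm17501 rose beside Ccn1. D730003I15Rik starts 6415 bases from Atf3, a stress-induced transcription factor gene that rose by 4.63, and went the other way. It was at 3.32, 3.36, 2.64 and 2.75 CPM in Mock and at 1.66, 2.02, 2.23 and 2.39 CPM in Pilo, a log2 fold change of -0.54 ± 0.18 (SE; edgeR adjusted p = 0.0337). Its groups did not overlap, but the call was lost without the low-count filter and without any 1 of Mock 1, 2 or 4 or Pilo 1 or 2, with adjusted p up to 0.103. Gm15834, which overlaps Fam126b on the other strand, was not called at -0.20. Fam126b, though on the list, was not called either, at -0.05. The start of Gm15834 lies 39 bases from that of Orc2, which was lower by 0.46 (edgeR adjusted p = 0.00112).

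By level, calls were more frequent among abundant genes in both directions, while the median change was negative throughout. The genes were divided by mean CPM into 3 groups of 279. In the lowest group (0.240 to 0.662 CPM), 9 were higher and 22 lower of 255 tested. In the middle group (up to 2.52 CPM), 12 were higher and 52 lower of 279. In the highest group (up to 1050 CPM), 23 were higher and 79 lower of 279. The medians were -0.22, -0.19 and -0.14. Protein-coding genes in the same ranges were lower in 3.58%, 7.72% and 17.7% of cases, against 8.63%, 18.6% and 28.3% of the lincRNA genes. In the highest range the coding genes had a median level of 35.6 CPM and the lincRNA genes one of 6.74 CPM, so these 2 sets were not matched in level. They were higher in 5.07%, 5.40% and 21.0%, against 3.53%, 4.30% and 8.24%. With a mean count of at least 50, 25 of 341 lincRNA genes were higher and 99 lower, beside 2503 and 2145 of 12430 protein-coding genes. With samples paired, the lowest, middle and highest groups had 13, 16 and 37 higher and 37, 75 and 105 lower.

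By length, the counts were alike. Of 3 groups of 279 by length, the shortest (up to 1164 bases of exon) had 18 higher and 47 lower of 267 tested, the middle one 13 and 51 of 270, and the longest (2574 to 25241 bases) 13 and 55 of 276. The medians were -0.24, -0.16 and -0.13. The shares called were 24.3%, 23.7% and 24.6%, beside 23.8%, 32.9% and 34.5% of protein-coding genes in the same length ranges. By structure, genes with 1 exon had 12 higher and 32 lower of 125 (35.2% called), those with 2 exons 14 and 47 of 215 (28.4%), and those with 3 or more 18 and 74 of 473 (19.5%). Within the lowest, middle and highest groups by level, 25.0%, 33.3% and 41.4% of the genes with 1 exon were called, against 10.6%, 21.3% and 35.3% of those with more. With samples paired, the shortest, middle and longest groups had 25, 19 and 22 higher and 75, 68 and 74 lower. The genes with 1, 2 and 3 or more exons then had 20, 19 and 27 higher and 46, 63 and 108 lower.

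By distance, lincRNA genes close to a protein-coding gene were called more often. Within 1 kb, overlaps included, 22 were higher and 53 lower of 245 (30.6% called). Over 1 to 10 kb there were 11 and 42 of 171 (31.0%), over 10 to 100 kb 9 and 45 of 276 (19.6%), and over 100 kb 2 and 13 of 121 (12.4%). Protein-coding genes at the same distances from their nearest protein-coding neighbour were called in 34.0%, 33.4%, 34.0% and 35.7% of cases. Their median levels were 25.5, 24.2, 21.7 and 23.9 CPM, so they were not matched in level to the lincRNA genes. The far lincRNA genes were also the rarer ones, with median levels of 1.22, 1.84, 0.991 and 0.833 CPM from near to far. Within the lowest, middle and highest groups by level, 21 of 109, 44 of 146 and 63 of 161 lincRNA genes within 10 kb were called, against 10 of 146, 20 of 133 and 39 of 118 of those further away. In the paired fit, the distance groups from near to far had 30, 16, 15 and 5 higher and 73, 56, 66 and 22 lower. In the lowest, middle and highest groups by level, the genes within 10 kb then had 10, 13 and 23 higher and 21, 47 and 61 lower, and the genes further away 3, 3 and 14 higher and 16, 28 and 44 lower.

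**Figure D4:**
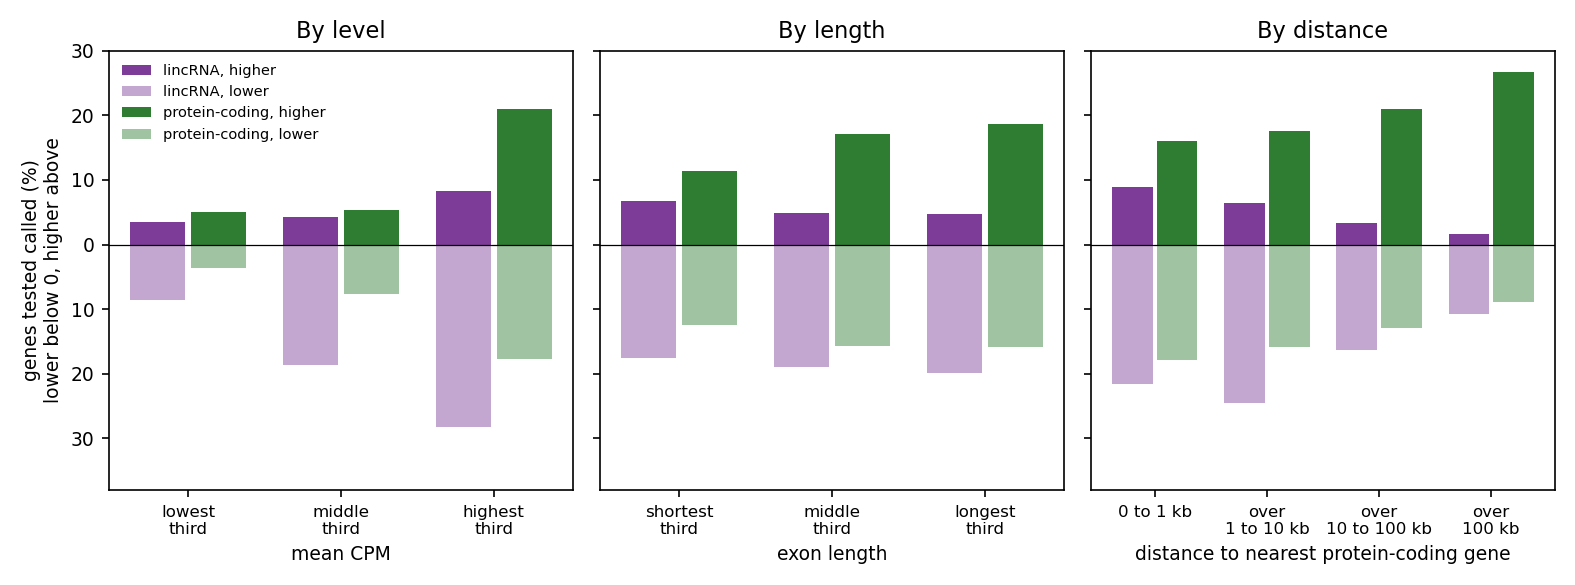
Percentage of tested genes called higher (above 0) and lower (below 0) for lincRNA genes (purple) and protein-coding genes (green), by mean CPM, by merged exon length and by distance to the nearest protein-coding gene. LincRNA genes called lower go from 8.63% in the lowest to 28.3% in the highest group by level, and those called higher go from 8.98% within 1 kb to 1.65% over 100 kb.

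By orientation to a neighbour within 10 kb, divergent genes were the largest class and held the largest number of falls. Of 158 tested divergent genes, which start back to back with the neighbour, 8 were higher and 45 lower, with a median log2 fold change of -0.32. Protein-coding genes divergent from another had 183 higher and 332 lower of 1405, with a median of -0.06. The median levels of these lincRNA and coding genes were 1.29 and 24.2 CPM, so they were not matched in level. Convergent lincRNA genes had 2 higher and 8 lower of 31. Genes downstream of the neighbour on the same strand had 10 higher and 16 lower of 75, and genes upstream of it 6 and 4 of 44. Overlapping genes on the other strand had 4 higher and 19 lower of 75, and on the same strand 3 and 3 of 33. With samples paired, the divergent genes had 10 higher and 62 lower, the convergent genes 2 and 12, the downstream genes 16 and 19, and the upstream genes 7 and 7. The overlapping genes then had 6 higher and 23 lower on the other strand, and 5 and 6 on the same strand.

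The orientations were also counted within 1 kb, a limit chosen after the values were seen, and the differences between orientations were not tested. Divergent genes there had 7 higher and 28 lower of 105, convergent genes 0 and 2 of 8, and upstream genes 3 and 0 of 14, with a median of 0.15 in the last. Protein-coding genes divergent within 1 kb of another had 121 higher and 251 lower of 955. The share lower was 26.7% of the divergent lincRNA genes and 26.3% of the coding ones, with medians of -0.30 and -0.07. Their median levels were 1.07 and 25.9 CPM, so the sets were not matched in level and their shares are not directly comparable. The shares higher were 6.67% and 12.7%. Convergent, upstream and downstream coding genes had 132 and 92 of 725, 60 and 36 of 311, and 44 and 42 of 277. Of 10 tested genes within 1 kb past the end of a protein-coding gene on its strand, 5 were higher and 1 lower, with a median of 0.78. Those higher were Gm43848 after Rap1a, Gm29156 after Uxs1, A530013C23Rik after Cebpb, Gm12525 after Sort1, and 1700056N10Rik. Among their coding neighbours, Rap1a (0.48) and Cebpb (0.52) were higher, while Uxs1 (0.21) and Sort1 (0.01) were not called. 1700056N10Rik itself was at 3.09, 2.95, 2.26 and 3.69 CPM in Mock and at 5.37, 8.52, 6.41 and 8.12 CPM in Pilo (log2 fold change 1.25 ± 0.19, SE; edgeR adjusted p = 0.000282). Its groups did not overlap, a condition for its place among the largest rises. The gene that fell was Gm45169, after Rhcg. Whether reads of the coding gene were counted in the lincRNA gene at these distances was not tested.

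Each lincRNA gene was set beside its nearest protein-coding gene. In 715 pairs with both tested, 41 lincRNA genes were higher and 140 lower. Of their neighbours, 183 (25.6%) were higher and 102 (14.3%) lower. Both were higher in 16 and both lower in 32. The lincRNA gene was lower and the neighbour higher in 30, and the reverse held in 4. Whether these pair counts differ from what the totals alone would give was not tested. Across these pairs the log2 fold changes had a Pearson r of 0.14 and a Spearman rho of 0.08, as a description of genes that share the 8 libraries and are not independent. In 155 divergent pairs within 10 kb, 46 neighbours were higher and 25 lower, and the 2 log2 fold changes had a Pearson r of 0.27 and a Spearman rho of 0.16. Of the 45 lincRNA genes that were lower there, 14 had a higher, 10 a lower and 21 an uncalled neighbour; 6 of the 8 that were higher had a higher neighbour. Gm43672, chosen after its values were seen, is an example of opposite movement. It starts 510 bases from Tbl1xr1, a corepressor gene, and was at 15.2, 11.9, 10.2 and 13.2 CPM in Mock and at 6.65, 5.32, 5.39 and 5.80 CPM in Pilo, with no overlap, while Tbl1xr1 was higher by 0.38 (edgeR adjusted p = 0.00168).

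**Figure D5:**
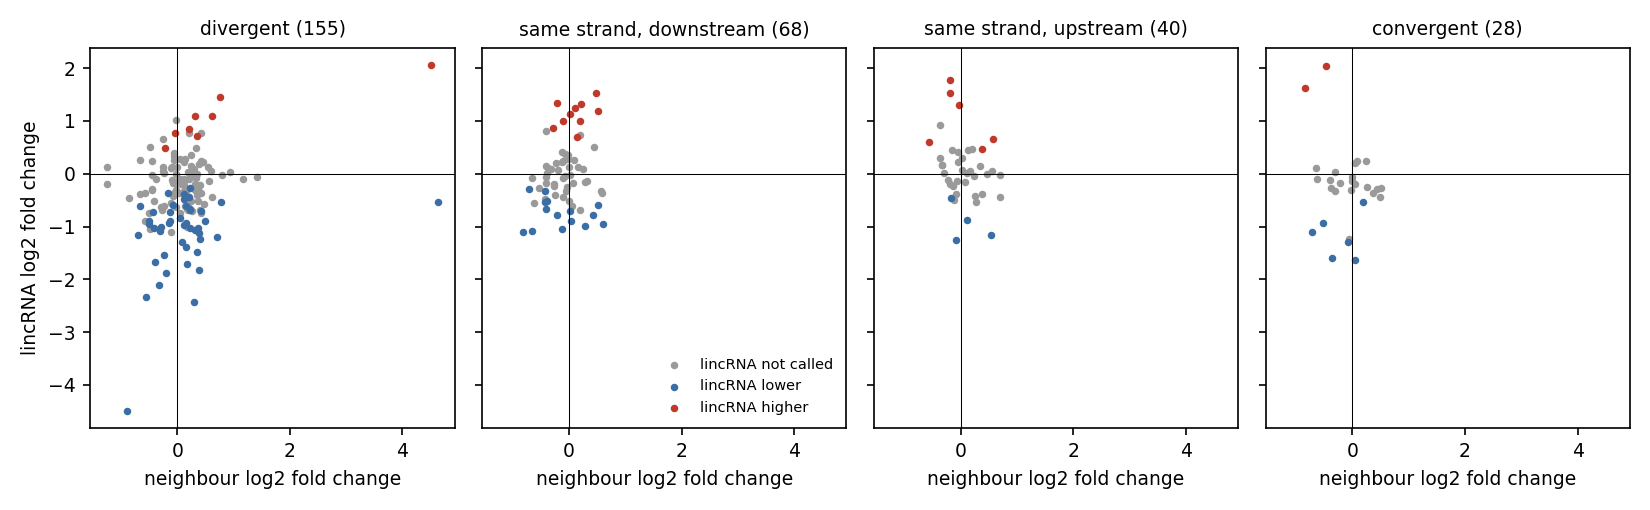
Log2 fold change (Pilo over Mock) of each lincRNA gene against that of its nearest protein-coding gene within 10 kb, by orientation, with the number of pairs in brackets and lincRNA calls in colour. In the 155 divergent pairs most lincRNA points lie below 0 (median -0.36) while the neighbours spread around 0.12; the red point at the upper right is Gm17501 with Ccn1.

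Promoter sequences were found for 399 of the lincRNA genes, of which 16 were higher and 70 lower. The AP-1 motif TGANTCA, searched on both strands, was in 6.52% of these promoters, against 7.93% of all 27025 promoters in the table. The CRE was in 3.26% against 1.88%, the EGR motif GCGNGGGCG in 4.51% against 5.55%, and the CArG box in 0.501% against 1.57%. Motifs were counted apart, so matches may overlap one another. Of the 16 promoters of higher genes, 1 held AP-1, 1 CRE and 1 EGR, and 0 the CArG box. Of the 70 promoters of lower genes, 6 held AP-1, 1 CRE, 3 EGR and 1 the CArG box. The single CRE among the higher genes is that of Mir9-3hg, printed above in capitals, and the other 3 promoters printed hold none of the 4 motifs.

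Introns were measured for few of these genes. The second deposited table held 5 of them, of which 4 could be tested, with 41.4% of its 13318 genes tested called. 1810058I24Rik fell in exons, by 0.54 ± 0.12, and in introns, by 0.92 ± 0.16 (SE; edgeR adjusted p = 0.00333 and 0.000352). Its intronic mean went from 21.7 to 11.4 CPM and its exonic mean from 7.41 to 5.11 CPM. Tmem250-ps was higher in introns by 0.32 ± 0.10 (edgeR adjusted p = 0.0220), a call lost without the second table's Mock column 2 or 4, and not called in exons at 0.17. Column 2 of that table matched column 3 of the exonic table. 1810020O05Rik and Lsmem2 were called in neither.

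Genes for the machinery that processes or removes such RNA were also measured. Of 25 nuclear exosome and cofactor genes, 3 were higher and 7 lower, with a median of -0.10, beside the 31.8% of all genes called. Exosc5 and Exosc8, which encode subunits of the exosome core, fell by 1.27 and 1.15. Exosc5 went from a mean of 18.2 to 7.53 CPM and Exosc8 from 52.1 to 23.4 CPM. Dis3, a catalytic subunit, fell by 0.47. Exosc9, another core subunit, rose by 0.39 (edgeR adjusted p = 0.00352), from a mean of 33.4 to 43.9 CPM, and the cofactor genes Rbm7 and Tent4b rose by 0.31 and 0.19. Integrator, which ends transcription of many short and noncoding RNAs, had 1 higher (Ints6, 0.63) and 4 lower of 14. The cleavage and polyadenylation genes had 2 higher and 2 lower of 23. In the paired fit these 3 lists had 6, 2 and 6 higher and 9, 8 and 6 lower, beside 23.8% higher and 23.2% lower of all genes. The part of these genes in the lincRNA changes was not tested.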

How the data were processed

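RNA of purified forebrain excitatory neuronal nuclei was sequenced in 4 Mock and 4 Pilo samples. The authors deposited raw, whole-number counts per gene. Per the submitters' processing notes, edgeR, R 4.1.1, HTSeq 0.11.2, STAR 2.7.1a and Trimmomatic 0.39 were used with the mm10 genome, in roles that are not stated. The annotation release and the strand setting of counting were not given in the sources used here. Of 55471 genes in the exonic table, 55144 matched GENCODE vM21 (GRCm38, the same assembly as mm10); the unmatched 327 held 0.165% of counts. A second deposited table gave intronic counts for 18513 genes.

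Counts were tested as deposited with edgeR 4.0.16 in R 4.3.3 (robust quasi-likelihood fit, TMM, filterByExpr with a minimum of 10 counts), adjusting by Benjamini-Hochberg over all genes. No sample was dropped. Distances run from gene body to gene body. Alternatives used DESeq2 1.42.0, limma 3.58.1 (voom), other scalings and filters, a replicate block and leaving out each sample.

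Members and lists were chosen with earlier results of these data known. Named were the 12 largest rises and falls among called genes with a mean count of at least 50 and no overlap of the groups, the 10 most abundant genes, and members of the lists given in the text. Genes of the lists that were not called are given by count and range.

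Deviations of same-numbered Mock and Pilo samples from their group means correlated over genes (r = 0.372, 0.380, 0.400 and 0.377 in exonic counts, 0.398, 0.318, 0.415 and 0.470 in intronic counts), so the numbers were taken as pairs in the replicate block. Columns 2 and 3 of the second table matched columns 3 and 2 of the exonic table in both groups. Chi-square values over genes between replicates were 10.1 to 34.1 times their degrees of freedom in the 12 pairs within groups. The fits were tested on simulated data.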

Additional observations from a re-analysis of the deposited data

Results flagged for a closer look

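In 6 of 128 groups of 4 samples checked, 1 sample stood far from the other 3; chance flags about 1 in 20 groups. AC122487.1 was at 4.18 CPM in Mock 3 and at 2.79 to 3.02 CPM in the other Mock samples. D930016D06Rik was at 172 CPM in Pilo 1 and at 146 to 149 CPM in the others. Gm29367 was at 2.07 CPM in Pilo 3, against 2.55 to 2.61 CPM, and Mir670hg at 12.6 CPM in Pilo 3, against 15.8 to 16.2 CPM. Both stayed above every Mock sample there. Snhg18 was at 0.670 CPM in Pilo 3, against 0.314 to 0.365 CPM, a handful of reads. Snhg20 was at 83.3 CPM in Mock 3, against 108 to 109 CPM.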

How the results depend on the processing

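In exonic counts, more lincRNA genes fell than rose under each alternative run: other scalings, other filters, DESeq2, limma-voom, the replicate block, each sample left out and the narrower gene sets. The counts higher and lower were 43 and 145 by DESeq2, 43 and 165 by limma-voom, and 42 and 169 with TMM from protein-coding genes, which moved the median of all genes by -0.03. Leaving out 1 sample gave 29 to 48 higher and 117 to 147 lower, with medians of -0.23 to -0.16, lowest for both the higher count and the median without Pilo replicate 2. Fewer genes tested or counted gave fewer calls: 24 higher with a filter of 50 counts, 25 higher and 99 lower with a mean count of at least 50 (chosen after seeing the data), 29 and 93 among genes overlapping no other gene, and 11 and 58 among genes over 10 kb from a protein-coding gene. The replicate block raised the counts lower to 37 in the lowest group by level, 75 in the shortest group and 22 over 100 kb, and the counts higher to 37 in the highest group by level, 22 in the longest group, 15 at 10 to 100 kb and 5 over 100 kb. It also raised the share of all genes called, from 31.8% to 47.0%. The intronic count higher was 0 to 1 with 1 sample left out. The cause of these moves under the block and without single samples was not tested. Of 60 named genes, 0 reversed under the 16 alternatives wherever tested; with the filter of 50 counts, 56 were tested. AI480526, D730003I15Rik and Mir124-2hg lost their calls in some, and 9 uncalled genes gained one under the block. Depth limits the lowest group by level, whose median gene had 13.5 counts a library.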
